A study of Bos taurus with 4 samples.

Results

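The genes described here are named for proteins of the mitochondrial ribosome (mitoribosome), and they were chosen by name alone. All rows of the deposited expression table with a bovine gene symbol starting MRPL (named for the large subunit) or MRPS (small subunit) were taken. This gave 80 rows for 76 genes, 47 MRPL and 29 MRPS, out of 14517 rows and 14002 named genes in the table. MRPL36 and MRPL40, which the gene table also lists, were not analysed here. The level is given as FPKM, the mapped fragments divided by transcript length and library size, so levels of different genes can be compared per unit of transcript length.

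The libraries were made from polyadenylated RNA of bovine (Bos taurus) embryos of 8 to 16 cells, 3 days after insemination. Zygotes had received negative control siRNAs (NC, 2 libraries) or siRNAs that target KDM5A, KDM5B and KDM5C, genes of demethylases of histone H3 lysine 4 (KDM5_KD, 2 libraries). The title of KDM5_KD replicate 2 names a Kdm5 knockdown, but its treatment entry names siRNAs against KDM6A, KDM6B and KDM6C, and it was grouped by its title. No strain, sex or number of pooled embryos is given, and nothing says that the libraries of a group came from separate batches of embryos, so a p-value here measures only the spread between these libraries.

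The mitoribosome sits in the mitochondrial matrix and translates the few proteins that mitochondrial DNA encodes, all of them subunits of the respiratory chain and ATP synthase. Its RNA comes from mitochondrial DNA, while all of its proteins are encoded in the nucleus, made in the cytosol and imported. Many of these proteins have a counterpart in the bacterial ribosome, and others are found only in mitochondria. A cleaving embryo lives on mitochondria inherited from the oocyte, and the cells studied here are passing through activation of the embryonic genome in cattle.

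The knockdown was checked on the targets with a row. KDM5A was at 28.4 and 27.1 FPKM in NC embryos, against 10.5 and 10.1 FPKM in KDM5_KD, and KDM5C at 28.1 and 40.6 against 15.1 and 17.8 FPKM. In the limma test described below, the adjusted p was 0.0333 for KDM5A and 0.123 for KDM5C, so only KDM5A fell under 0.05. KDM6A overlapped between groups (7.63 and 11.3 FPKM in NC, 7.90 and 9.29 FPKM in KDM5_KD), and KDM5B was not analysed here. The FPKM summed to between 279259 and 290051 per library once microRNA rows were left out. With microRNA rows the groups were less even, at 287950 and 283347 FPKM in NC and 322267 and 297389 FPKM in KDM5_KD. The labelled embryo origin was checked on 14 oocyte and embryo markers, of which 11 had a row. All 11 were detected in every library, among them POU5F1 (56.2 to 63.2 FPKM), BMP15 and ZP3. Markers of cumulus and granulosa cells, the somatic cells around the oocyte, were low but differed between groups: the 12 of 16 that passed the filter summed to 35.2 and 23.9 FPKM in NC and to 78.7 and 69.5 FPKM in KDM5_KD. Of these, 10 of 12 lay higher in both KDM5_KD libraries. The filter was a mean of at least 1 FPKM over all 4 libraries. COL1A2, GREM1 and VCAN, under 1 FPKM in both NC libraries, passed it only through KDM5_KD, so sums and counts partly follow from the filter. Of the markers that did not pass, CYP19A1 and FSHR stayed under 0.1 FPKM in all 4 libraries, and FSHR was listed at 0 in both NC libraries. PTX3 and PTGS2 stayed under 0.5 FPKM. At these low values FSHR, PTX3 and PTGS2 also lay higher in both KDM5_KD libraries, and CYP19A1 overlapped. The part of these cells, or of the library labelled with KDM6 siRNAs, in the differences reported below was not tested. In bulk RNA, a different share of cells and a different amount of RNA per cell cannot be told apart.

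Mitoribosomal protein genes were expressed throughout. In each library 71 of the 76 genes were at 10 FPKM or more, and the median gene stood at 28.7 and 30.9 FPKM under control siRNAs and 29.8 and 29.0 FPKM under KDM5 siRNAs (rows summed by gene). Together they made up 1.01% and 1.06% of the FPKM outside microRNA rows in NC and 1.01% and 0.993% in KDM5_KD. The 47 MRPL genes summed to 1819 and 1868 FPKM in NC and to 1816 and 1753 FPKM in KDM5_KD. For the 29 MRPS genes the sums were 1096 and 1091 FPKM against 1117 and 1078 FPKM. KDM5_KD replicate 2 was the lowest of the 4 libraries for both classes, and KDM5_KD replicate 1 was slightly under both NC libraries in its MRPL sum and its share of FPKM and above both in its MRPS sum.

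Although the proteins work in a single particle, their transcripts were not present at equal levels. The highest gene exceeded the lowest 50.7- and 55.6-fold in NC and 40.5- and 30.3-fold in KDM5_KD, whereas the upper quartile exceeded the lower 2.69- to 2.89-fold. MRPL17, whose protein lies near the exit of the tunnel for the nascent chain, was the highest gene in all 4 libraries, at 163 and 162 FPKM in control and 182 and 157 FPKM in knockdown libraries. The next 4 by mean level were MRPL16, MRPL20, MRPS18C and MRPL18, with means over the 4 libraries between 94.2 and 96.3 FPKM. Their order is not fixed, because each varied more between libraries than these means differed. MRPL18, for example, ran from 89.4 to 106 FPKM and MRPL20 from 87.4 to 105 FPKM. MRPL54 was the lowest gene in every library, at 3.21 and 2.92 FPKM in NC embryos, against 4.49 and 5.18 FPKM in KDM5_KD. The order of the genes was similar in all libraries: across the 76 genes, the Pearson r of log2(FPKM + 1) was 0.969 for the pair of NC libraries, 0.960 for the KDM5_KD libraries and 0.939 to 0.976 between groups. These are descriptions across genes that share a library, not tests.

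**Figure D1:**
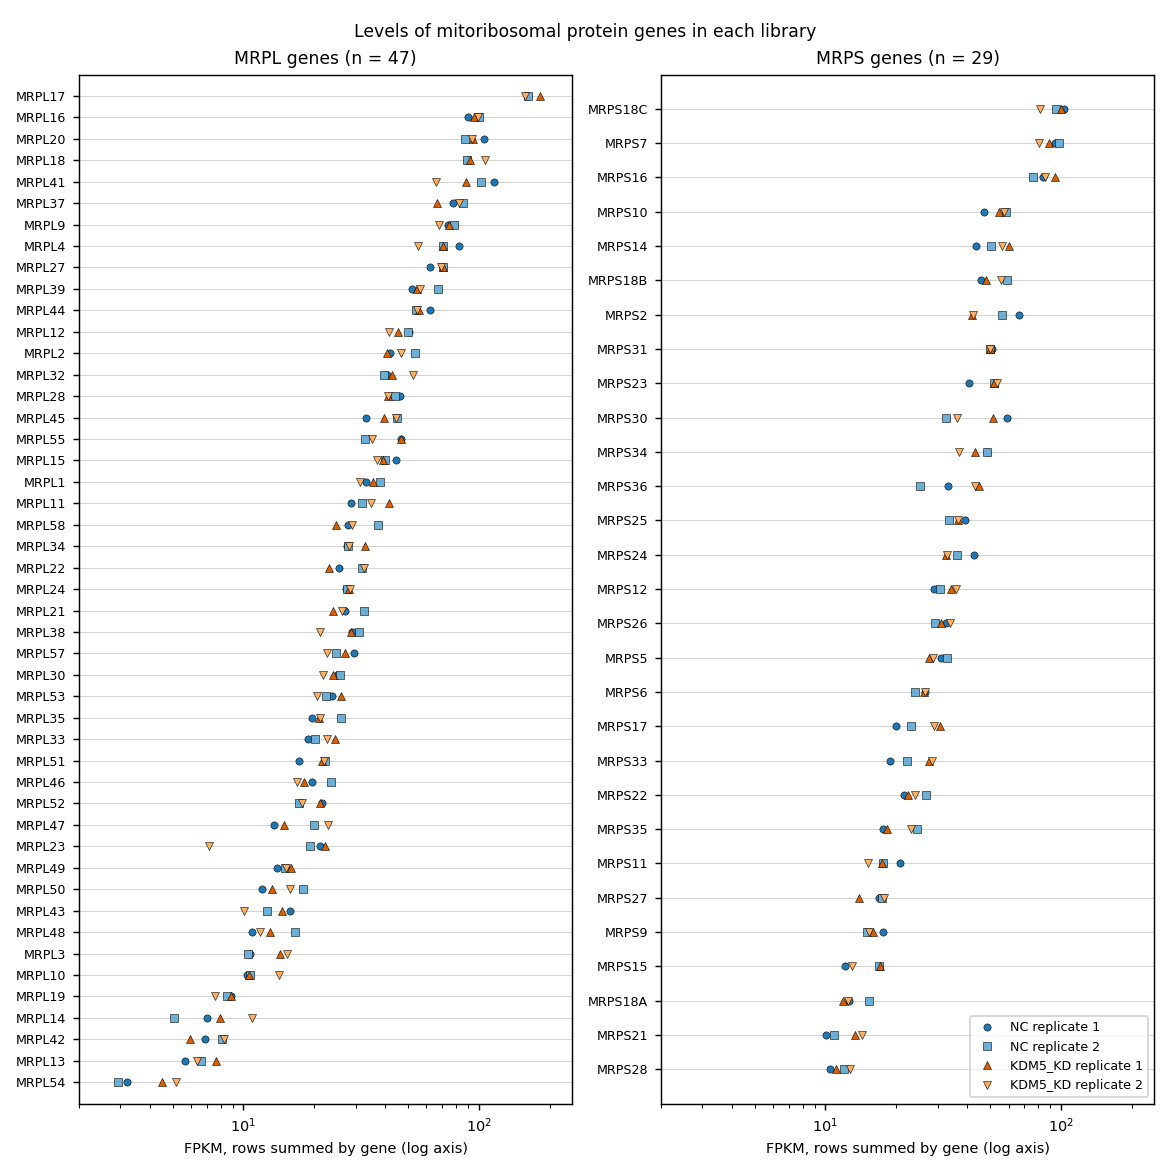
Level of each of the 47 MRPL and 29 MRPS genes (FPKM on a log axis, rows summed by gene) in the 4 libraries, with circles and squares for NC and triangles for KDM5_KD. MRPL17 stands alone at the top (157 to 182 FPKM), MRPL54 at the bottom (2.92 to 5.18 FPKM), and for most genes the 4 symbols lie close together or interleave.

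Differences between groups were tested with limma on log2(FPKM + 1) over all 8970 rows with a mean of at least 1 FPKM. Of the 80 member rows, 78 passed this filter, covering all 76 genes. No member was called at a limma adjusted p under 0.05, higher or lower, where 0.19% of all rows tested were called higher and 0.0892% lower. The smallest adjusted p among members was 0.155, for MRPS2. Without adjustment, 7 members had a limma p under 0.05, 5 higher (MRPL3, MRPL54, MRPS17, MRPS33 and MRPS36) and 2 lower (MRPL41 and MRPS2) in KDM5_KD, or 8.97% of the 78. Over all rows the share was 17.5%, of which 14.3% were higher and 3.12% lower. A permutation test of a single gene could not add to this, since 2 libraries against 2 allow no exact two-sided p below 0.333.

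The differences were small. In 57 of 78 members (73.1%) the difference was at most 0.25 on the log2 scale, against 57.2% of all rows. A difference of 0.5 or more was found in 8 members, against 18.6% of all rows. Only the row NM_001303493 of MRPL55 reached a difference of 1, where 4.52% of all rows were at least 1 higher and 0.301% at least 1 lower. The smallest difference among all called rows of the table was 1.09, so a member had to differ by more than most did to be called at all. For 73 of the 78 members the 95% interval from limma lay within 1 in either direction. The exceptions were MRPL14, MRPL23, MRPL54 and the 2 low rows of MRPL55. A miss of the threshold therefore does not show equal levels, and the median width of these intervals was 0.38 to each side.

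The members as a group showed no shared direction. The median log2 difference was -0.02 (quartiles -0.14 and 0.14), with 35 of 78 positive, beside 0.09 for all rows (quartiles -0.09 and 0.35), of which 62.6% were positive. Members with both KDM5_KD libraries above both NC libraries numbered 18 (23.1%, against 35.1% of all rows), and 17 had both below (21.8%, against 15.6% of all rows). The 18 include a row of MRPL55 that was near 0 in every library but KDM5_KD replicate 1. With rows summed by gene symbol, 17 lay above. The sign of the median is not determined: it was 0.04 without NC replicate 2 and 0.003 without KDM5_KD replicate 2. With median-ratio scaling, which moved the median of all rows by about as much, it was -0.13, and 11 members lay above and 27 below, where 25.9% of all rows lay above and 25.4% below.

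Weakly expressed rows of this table were more often higher in KDM5_KD, so members were also compared by level. When all rows were divided into 4 equal groups by mean level, 39 members fell in the highest and 32 in the next. In the highest group, above 28.7 FPKM, the median difference was -0.03 for members and -0.02 for all rows. There, 8 of the 39 members lay entirely above NC and 11 below, where 21.0% of all rows of that group lay above and 24.5% below. In the next, from 10.5 to 28.7 FPKM, the median was -0.02 for members and 0.06 for all rows. Of its 32 members, 7 lay entirely above and 6 below, where 30.8% of all rows of that group lay above and 17.6% below. Only 7 members had a lower mean level.

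**Figure D2:**
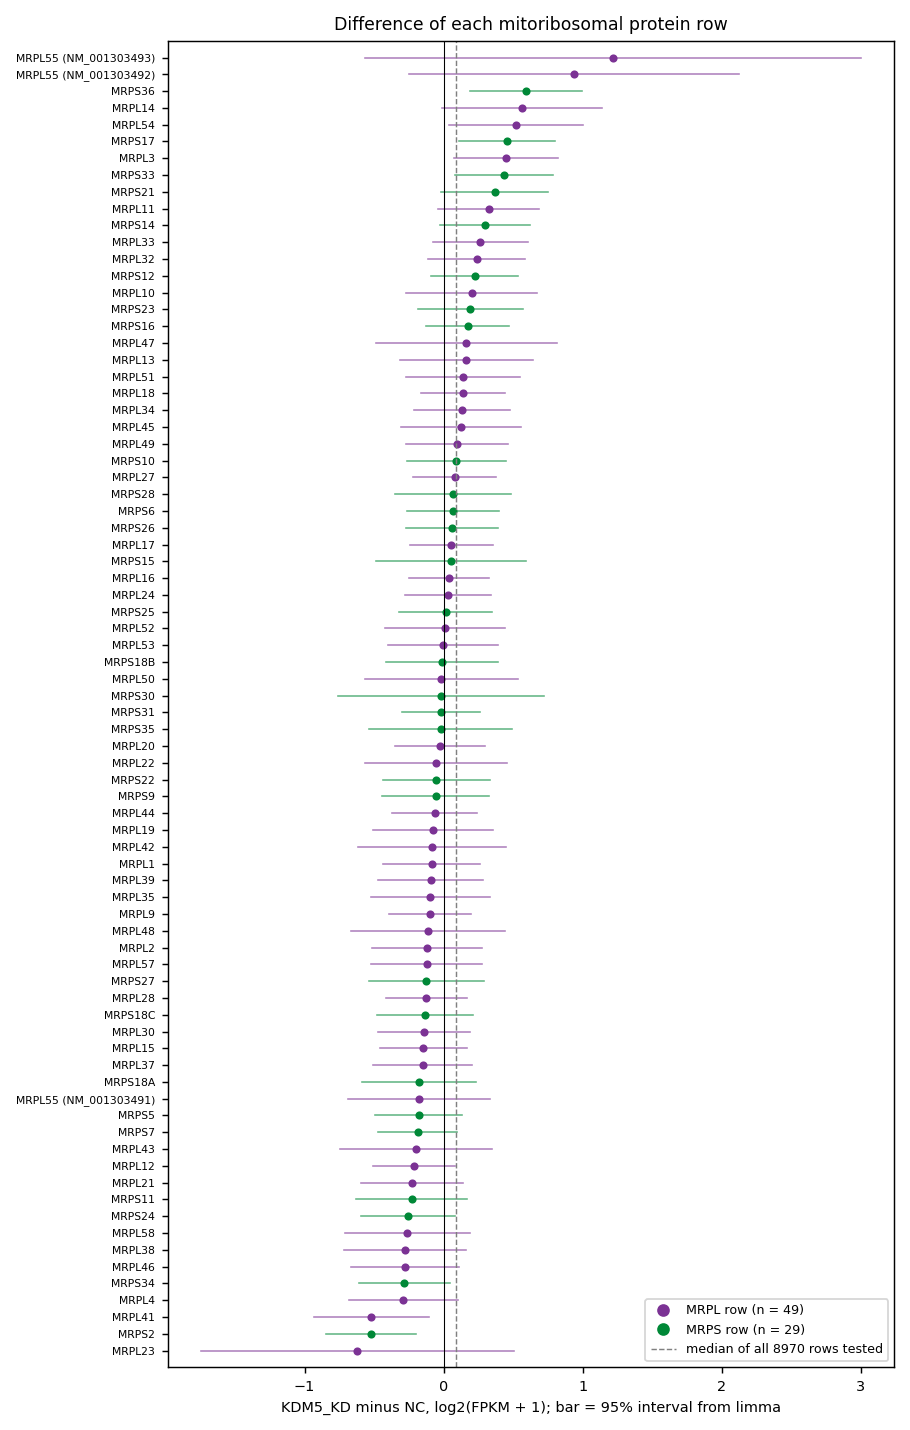
Difference between KDM5_KD and NC (log2(FPKM + 1)) for each of the 78 member rows tested, sorted, with the 95% interval from limma as a bar. Most intervals cover 0, and the points lie on both sides of it for MRPL and MRPS rows alike, from -0.62 for MRPL23 to 1.22 for a row of MRPL55.

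The small subunit binds the messenger RNA and decodes it. The 29 MRPS-named genes had a median log2 difference of -0.01, with 14 positive (48.3%, against 62.6% of all rows). They are grouped by name and include MRPS18A and MRPS30, proteins of the large subunit, and MRPS36, which is placed in neither subunit. Of the 29, 7 lay entirely above NC (24.1%) and 8 entirely below (27.6%), against 35.1% and 15.6% of all rows. MRPS2, which encodes a protein of bacterial descent and is a gene of inherited respiratory chain deficiency, showed the largest deficit that did not overlap. It was at 66.3 and 56.4 FPKM under control siRNAs and 42.1 and 42.5 FPKM under KDM5 siRNAs. Both knockdown libraries lay close together and well under either control, at 68.9% of the NC mean. The log2 difference was -0.52 (SE 0.132; limma adjusted p of 0.155).

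MRPS34, a mitochondria-specific protein whose loss in patients destabilizes the small subunit, was at 48.7 and 48.5 FPKM in control and 43.1 and 36.8 FPKM in knockdown libraries (log2 difference -0.28, SE 0.133, limma adjusted p of 0.343). MRPS7, which lies in the head of the subunit, was also lower in both knockdown libraries (88.9 and 80.6 against 94.6 and 98.3 FPKM). So were MRPS5 and MRPS24, the counterparts of bacterial S5 and S3, which line the entry of the mRNA channel. MRPS5 went from 31.0 and 32.9 to 27.6 and 28.6 FPKM, and MRPS24 from 42.6 and 36.05 to 32.4 and 32.9 FPKM. MRPS11 and MRPL46 are neighbouring genes in the RefSeq table, the sole pair of members adjacent to each other, and both were lower in the 2 knockdown libraries, by -0.23 and -0.28 on the log2 scale.

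Several small subunit genes lay on the other side. MRPS17, the counterpart of bacterial S17, was at 20.0 and 23.1 FPKM in NC embryos, against 30.8 and 28.9 FPKM in KDM5_KD (log2 difference 0.46, SE 0.143, limma adjusted p of 0.200). The mitochondria-specific MRPS33 was at 18.8 and 22.2 against 27.6 and 28.3 FPKM, a log2 difference of 0.43 (limma adjusted p of 0.218). MRPS21 stood at 10.1 and 10.9 against 13.3 and 14.3 FPKM, a difference of 0.37 (limma adjusted p of 0.304). In each of these 3 genes the gap between the groups was wider than the gap between the controls, although no adjusted p passed. They were named for large differences without overlap, so such a gap is no separate result. A group difference larger than both within-group differences was found in 24 of 78 members (30.8%), against 37.3% of all rows tested. MRPS12, which forms part of the decoding centre, was at 28.9 and 30.8 FPKM under control siRNAs and 34.2 and 35.8 FPKM under KDM5 siRNAs. MRPS14 (43.6 and 50.7 against 60.1 and 56.3 FPKM) and MRPS16 (84.0 and 75.9 against 94.5 and 86.0 FPKM), both genes of inherited respiratory chain deficiency, were also higher in both knockdown libraries.

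MRPS22, another such disease gene, overlapped between groups (21.6 and 26.7 FPKM in NC, 22.4 and 23.9 FPKM in KDM5_KD). MRPS31 varied little, with all 4 libraries between 49.9 and 51.0 FPKM. Its knockdown values were both under the controls, by a log2 difference of -0.02, which shows how little a lack of overlap says with 2 libraries a group.

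The S18 family has 3 members in mammals, which occupy different places. MRPS18C, at the position of bacterial S18, was at 103 and 95.2 FPKM in control and 100.1 and 81.3 FPKM in knockdown libraries. MRPS18B, a small subunit protein, was at 45.7 and 59.3 against 48.2 and 55.5 FPKM, and MRPS18A, which despite its name sits in the large subunit, at 12.6 and 15.2 against 11.9 and 12.5 FPKM. The members of this family thus differed several-fold in level, and the first 2 overlapped between groups while MRPS18A lay lower in both knockdown libraries (log2 difference -0.17, limma adjusted p of 0.643). MRPS30, also a large subunit protein, differed more within groups than between them, at 59.0 and 32.5 FPKM in NC embryos, against 51.6 and 36.4 FPKM in KDM5_KD.

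MRPS36 carries a mitoribosomal name, but its product, also called KGD4, is known as a component of the 2-oxoglutarate dehydrogenase complex of the citric acid cycle. Among members with a mean of at least 5 FPKM and no overlap between groups it had the largest excess in KDM5_KD on the log2(FPKM + 1) scale, although MRPL14 was higher as a percentage of the NC mean (156%). Its levels were 33.1 and 25.2 FPKM in NC and 44.9 and 43.2 FPKM in KDM5_KD, 151% of the NC mean, with a log2 difference of 0.59 (SE 0.164, limma adjusted p of 0.170). It counts among the 29 MRPS genes by the naming rule only.

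**Figure D3:**
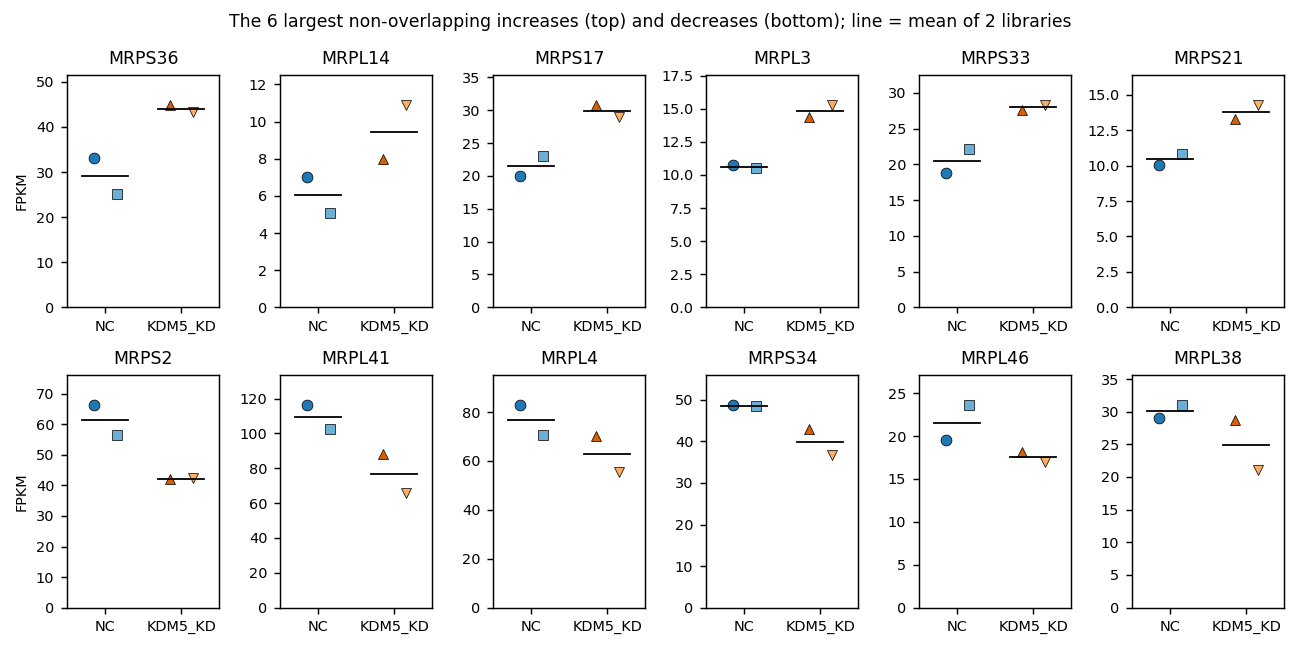
FPKM in each library for the 12 members with the largest non-overlapping differences among those with a mean of at least 5 FPKM, 6 higher (top) and 6 lower (bottom), with the same symbols as in the plot of levels and a line at each group mean. The axes start at 0, and the knockdown means lie between 68.9% (MRPS2) and 156% (MRPL14) of the NC means.

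The large subunit joins amino acids and guides the new chain to the inner membrane. Its 49 MRPL-named rows tested had a median log2 difference of -0.05, with 21 positive (42.9%, against 62.6% of all rows). Of the 49, 11 lay entirely above NC (22.4%) and 9 entirely below (18.4%), against 35.1% and 15.6% of all rows. MRPL41, a mitochondria-specific protein, had the largest deficit without overlap among MRPL genes. It was at 116 and 103 FPKM under control siRNAs and 88.1 and 65.6 FPKM under KDM5 siRNAs, or 70.2% of the NC mean (log2 difference -0.52, SE 0.170, limma adjusted p of 0.211). The knockdown libraries differed from each other here more than the controls did.

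MRPL4, the counterpart of bacterial L4, was at 82.8 and 70.4 FPKM in control and 70.2 and 55.3 FPKM in knockdown libraries. The groups nearly touched, and the log2 difference was -0.29 (limma adjusted p of 0.416). MRPL38 and MRPL46, proteins of the central protuberance on top of the subunit, had log2 differences of -0.28 each. MRPL38 was at 29.1 and 31.0 against 28.7 and 21.1 FPKM, a difference that rests on KDM5_KD replicate 2, and MRPL46 at 19.5 and 23.6 against 18.1 and 16.9 FPKM.

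MRPL23, a protein at the tunnel exit, had the lowest difference of all members (-0.62, SE 0.461, limma adjusted p of 0.538), but its groups overlapped. It was at 21.2, 19.1 and 22.3 FPKM in NC replicates 1 and 2 and KDM5_KD replicate 1, and at 7.14 FPKM in KDM5_KD replicate 2, without which the difference was 0.14. The other large subunit proteins at the exit did not share this value: MRPL24 was at 27.4 to 28.3 FPKM in all libraries. MRPL45, which anchors the ribosome to the inner membrane beside the exit, was at 33.05 and 44.8 FPKM in NC embryos, against 39.7 and 44.6 FPKM in KDM5_KD.

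Among the members higher in both knockdown libraries, MRPL3, a protein that reaches the peptidyl transferase centre and a gene of inherited cardiomyopathy, had replicates close together. It was at 10.7 and 10.5 FPKM under control siRNAs and 14.4 and 15.3 FPKM under KDM5 siRNAs, 140% of the NC mean, with a log2 difference of 0.45 (SE 0.153, limma adjusted p of 0.227). MRPL14 was at 7.03 and 5.08 against 7.99 and 10.9 FPKM, a log2 difference of 0.57 (limma adjusted p of 0.295), and the lowest gene, MRPL54, differed by 0.52 (limma adjusted p of 0.261). MRPL14 and MRPL3 each overlap another gene in the RefSeq table (MRPL14 overlaps TMEM63B), as do 22 of the 76 genes in all. Among members described as lower, MRPL23, MRPL38, MRPS7 and MRPS24 also overlap another gene. These overlaps are of whole gene bodies, introns included, and whether exons overlap was not examined. Counting by strand is not stated, so reads from a shared stretch cannot be told apart.

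Translation factors dock at the stalk. MRPL12, the protein carried on the stalk in several copies, was at 50.7 and 50.1 FPKM in control and 45.4 and 41.4 FPKM in knockdown libraries (log2 difference -0.21, limma adjusted p of 0.424). MRPL11, at the stalk base, lay the other way, at 28.6 and 31.8 against 41.7 and 34.7 FPKM (log2 difference 0.32, limma adjusted p of 0.331). MRPL10, which holds MRPL12 in the particle, overlapped between groups (10.3 and 10.7 FPKM in NC, 10.5 and 14.2 FPKM in KDM5_KD). None of the 3 passed the test.

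MRPL44, an RNase III-like protein whose mutation causes cardiomyopathy, overlapped, at 61.9 and 54.1 against 55.9 and 54.6 FPKM. So did MRPL58, a peptidyl-tRNA hydrolase built into the large subunit, formerly called ICT1, at 27.8 and 37.5 against 24.8 and 29.0 FPKM. The 5 members nearest to the median profile of all members over the 4 libraries were MRPL24, MRPS31, MRPL16, MRPL49 and MRPL27, with log2 differences between -0.02 and 0.10.

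MRPL55 was the sole member with several transcript rows, 5 in all. NM_001303491 held most of the signal, at 40.7 and 31.5 FPKM in NC embryos, against 37.3 and 26.7 FPKM in KDM5_KD. NM_001303492 was at 5.44 and 1.39 against 5.04 and 8.36 FPKM. NM_001303493 was at 4.44 FPKM in KDM5_KD replicate 1 and near 0 in the other 3 libraries, so its log2 difference of 1.22 (SE 0.730, limma adjusted p of 0.445) comes from that library alone. It passed the filter only through that library, and lies above NC in KDM5_KD replicate 2 only by values near 0. It is still counted as above NC among the members, the MRPL rows and the rows with a bacterial counterpart. The remaining 2 rows, NM_001303490 and NM_001303495, did not pass the filter: the first was at 0.440 FPKM in NC replicate 1 and both were otherwise near 0. Summed over its rows the gene was at 46.6 and 32.8 FPKM under control siRNAs and 46.7 and 35.1 FPKM under KDM5 siRNAs, with overlap between groups. Values near 0 in such a table can be failed estimates. MRPL55 also overlaps GUK1 in the RefSeq table.

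Members were also sorted by descent in place of subunit. Of 47 rows for proteins with a bacterial counterpart, 25 had a positive log2 difference and the median was 0.04. Of 30 rows for mitochondria-specific proteins 9 had a positive difference and the median was -0.04, beside 62.6% positive among all rows. Entirely above NC were 14 of the 47 and 3 of the 30, and entirely below were 11 and 6, where 35.1% of all rows lay above and 15.6% below. The quartiles overlapped widely (-0.14 to 0.19, and -0.14 to 0.01), and the difference between these classes was not tested.

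The mitoribosome also holds proteins without the MRP name, and 5 of the 6 looked for had a row. None was called (limma adjusted p of at least 0.106), and 1 of the 5 (20%) had an unadjusted limma p under 0.05, against 17.5% of all rows. That gene was GADD45GIP1 (CRIF1), a large subunit protein near the tunnel exit that is required for insertion of the new chain. It was at 52.0 and 53.9 FPKM in control and 32.3 and 33.1 FPKM in knockdown libraries, a log2 difference of -0.68 with a limma adjusted p of 0.106. This separation was wider than that of any MRPL or MRPS gene with a mean of at least 5 FPKM and no overlap. AURKAIP1 was lower as well (51.6 and 49.8 against 38.5 and 46.7 FPKM), CHCHD1 higher (17.5 and 16.2 against 17.9 and 22.1 FPKM), and DAP3 and PTCD3 overlapped.

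The surrounding machinery of mitochondrial gene expression gave a similar picture, with none called in any list by limma. For 15 translation factors the median log2 difference was 0.05. Of these, 4 lay entirely above NC (26.7%) and 5 below (33.3%), where the shares of all rows were 35.1% and 15.6%. None of the 15 factors had an unadjusted limma p under 0.05, against 17.5% of all rows. TUFM, the elongation factor that delivers aminoacyl-tRNA, was their most abundant gene (130 and 127 FPKM in NC, 121 and 118 FPKM in KDM5_KD). The ribosome recycling factor MRRF was highest relative to control (3.32 and 3.83 against 4.8 and 6.0 FPKM), and LETM1 lowest among those without overlap (25.5 and 21.8 against 18.7 and 21.1 FPKM).

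The 15 mitochondrial aminoacyl-tRNA synthetases had a median of 0.006. Entirely above NC were 3 (20%) and below 2 (13.3%), against 35.1% and 15.6% of all rows. Without adjustment, 2 of 15 (13.3%) had a limma p under 0.05, both higher, against 14.3% of all rows higher and 3.12% lower. These were IARS2, the isoleucine enzyme, at 1.79 and 0.962 against 3.42 and 2.92 FPKM, and GARS1, the glycine enzyme of both cytosol and mitochondria, at 7.02 and 7.14 against 9.14 and 11.6 FPKM. MARS2, the methionine enzyme, had the largest deficit without overlap (5.56 and 5.48 against 5.30 and 4.29 FPKM).

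Assembly and rRNA-modifying factors (27 rows of 25 genes) had a median log2 difference of -0.05. Of the 27 rows, 5 lay entirely above NC (18.5%) and 3 below (11.1%), against 35.1% and 15.6% of all rows. An unadjusted limma p under 0.05 was found for 1 of the 27 (3.70%), against 17.5% of all rows. This was MTERF3, needed for assembly of the large subunit, at 9.75 and 8.49 FPKM in NC embryos, against 11.8 and 21.6 FPKM in KDM5_KD. RPUSD4, a pseudouridine synthase for the large rRNA, was at 24.6 and 27.6 against 19.7 and 21.4 FPKM.

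Of 18 rows for mitochondrial transcription and RNA factors, 1 lay entirely above NC (5.56%) and 5 below (27.8%). The shares of all rows were 35.1% and 15.6%. An unadjusted limma p under 0.05 was found for 2 of the 18 (11.1%), both lower, against 14.3% of all rows higher and 3.12% lower. These were ELAC2, which cuts the 3′ ends of mitochondrial tRNAs, at 61.5 and 47.6 against 39.0 and 34.3 FPKM, and GTPBP3, which modifies mitochondrial tRNAs, at 29.8 and 26.4 against 21.1 and 19.3 FPKM. POLRMT, the mitochondrial RNA polymerase, also lay lower in both knockdown libraries (62.3 and 53.2 against 48.2 and 44.2 FPKM), while TFAM, which packages mitochondrial DNA, overlapped (80.3 and 71.0 against 80.2 and 67.4 FPKM). TRMT10C, a subunit of mitochondrial RNase P, was the row lying above (17.4 and 19.8 against 20.1 and 20.9 FPKM).

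The 79 tested rows of cytosolic ribosomal proteins had a much higher median level, 394 FPKM against 28.6 FPKM for the mitoribosomal rows, and a median log2 difference of -0.06. Of these, 1 lay entirely above NC (1.27%) and 23 below (29.1%), against 35.1% and 15.6% of all rows. Among all rows in the highest level group, above 28.7 FPKM, the shares were 21.0% and 24.5%. Against 57.2% of all rows, 71 of the 79 differed by at most 0.25. None was called (smallest limma adjusted p of 0.052, RPL17). An unadjusted limma p under 0.05 was found for 2 (2.53%), RPL17 and RPL36, both lower, against 14.3% of all rows higher and 3.12% lower. RPL17 was called under 6 of the 15 alternatives (adjusted p of 0.0415 with median-ratio scaling). Whether the cytosolic and mitoribosomal lists differ was not tested, since genes are not replicates.

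The oocyte and embryo markers had a median log2 difference of 0.35, with 5 of 12 rows entirely above and none below. For the cumulus and granulosa markers the median was 1.12, with 10 of 12 above and none below. Of all rows, 35.1% lay above and 15.6% below. Among the cumulus and granulosa markers, COL1A2, GREM1 and VCAN passed the filter only through KDM5_KD, which by itself favours rows above NC. None of either list was called by limma. An unadjusted limma p under 0.05 was found for 3 of the 12 oocyte and embryo rows (25%), BMP15, a row of DPPA3 and KPNA7. The same held for 9 of the 12 cumulus and granulosa rows (75%), against 17.5% of all rows. The other row of DPPA3 overlapped between groups (34.5 and 36.5 against 32.8 and 40.0 FPKM, log2 difference 0.03). Of the genes named here, LUM was called with robust eBayes. Without NC replicate 1 the log2 difference was 1.73 for LUM, 0.92 for BMP15 and 0.86 for the higher row of DPPA3. BMP15, an oocyte growth factor, was at 118 and 83.8 FPKM under control siRNAs and 149 and 172 FPKM under KDM5 siRNAs, and LUM, a matrix protein of somatic cells, at 4.02 and 5.12 against 23.8 and 15.6 FPKM. The tested cumulus and granulosa markers that overlapped had negative log2 differences. They were AMH (2.77 and 1.12 against 1.28 and 0.957 FPKM, -0.42) and TNFAIP6 (1.21 and 1.31 against 1.10 and 1.26 FPKM, -0.05). Over the same libraries the 76 mitoribosomal genes summed to 2915 and 2958 FPKM in NC and to 2933 and 2831 FPKM in KDM5_KD, so the groups overlapped.

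**Figure D4:**
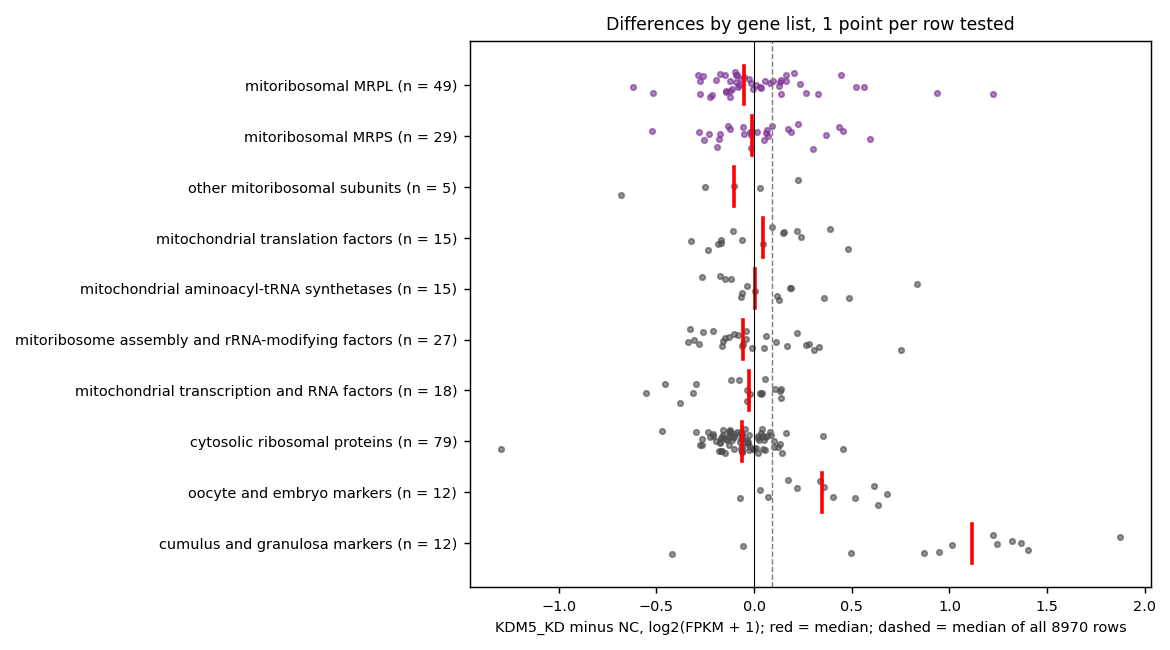
Log2 difference between KDM5_KD and NC for every row tested of each gene list, with the list median in red and the median of all 8970 rows as a dashed line. The mitoribosomal rows and the other lists of mitochondrial gene expression centre near 0, while the oocyte and cumulus markers lie to the right, with medians of 0.35 and 1.12.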

How the data were processed

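The authors deposited 1 table of FPKM values for 14517 RefSeq transcript accessions in 4 columns, 1 per library. Trimmomatic, HISAT2, featureCounts and Cufflinks are named, without versions or roles, per the submitters' processing notes; the genome build and annotation are not given in the sources used here. A RefSeq gene table (assembly ARS-UCD2.0) gave symbols for 14295 accessions. No genomic positions or sequences are given. Read depth is unknown, so precision rests on 2 libraries a group.

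Groups came from sample titles. limma 3.58.1 (R 4.3.3; lmFit, then eBayes with a mean-variance trend) was run on log2(FPKM + 1) for all rows with a mean FPKM of at least 1, with Benjamini-Hochberg adjustment over the 8970 rows; log2 differences on this scale understate those of low genes. The fit was run on 5 simulated tables, with variances drawn from its own model and independent normal errors. It recovered 30% of the rows given a log2 change of 1 and 91.2% of those given a change of 2. Of the rows it called, 5.02% had been left unchanged. A share near the threshold follows from this setup, and whether these FPKM values meet its assumptions was not tested. Tables and plots used matplotlib 3.10.9, numpy 2.4.6 and pandas 2.3.3 under Python 3.11.15. Members, gene lists and tests were chosen with earlier results of these data known.

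Genes named with values were: the 6 largest non-overlapping differences in each direction at a mean of at least 5 FPKM, the 5 highest and 3 lowest rows, rows under the filter, genes with a listed role, genes with several rows, the 5 nearest the median profile, and the largest non-overlapping difference each way in each other list. MRPL23, MRPS5, MRPS7, MRPS11, MRPS14, MRPS24, AURKAIP1, DAP3, PTCD3, TUFM, POLRMT, TFAM, GARS1, GTPBP3, RPL36, DPPA3 and KPNA7 were added after their values were seen. Fits were repeated under 15 alternatives: no filter, a filter at 5, a pseudocount of 0.1, median-ratio scaling, quantile normalization, a common sum of 1000000, no microRNA rows, rows summed by symbol, eBayes without a trend or robust, the replicate number as a block, and leaving out each library.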

Additional observations from a re-analysis of the deposited data

How the results depend on the processing

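No member was called higher or lower under any of the 15 alternatives, and the smallest limma adjusted p of any member was 0.0528, without NC replicate 1. The number of calls over the whole table, 17 higher and 8 lower of 8970 rows, ranged from 2 higher and 1 lower of 12687 rows without a filter to 323 higher and 17 lower of 8970 without NC replicate 1. Members above both controls numbered 18, but 11 with median-ratio scaling and 11 with a common sum (25.9% and 24.2% of all rows); leaving out replicates gave 24 to 36 (36 without NC replicate 2, 28 without KDM5_KD replicate 1), with 45.0% to 50.02% of all rows above. Members below both controls numbered 17, but 27 with median-ratio scaling and 26 with a common sum (25.4% and 25.5% of all rows); leaving out replicates gave 23 to 33 (33 without NC replicate 1, 28 without NC replicate 2, 27 without KDM5_KD replicate 1), with 25.4% to 28.9% of all rows below, and fewer libraries by themselves make separation easier. The median member difference of -0.02 became -0.127 (median-ratio scaling), -0.087 (quantile normalization) and -0.133 (common sum); leaving out replicates gave -0.041 to 0.043. For MRPL rows the median of -0.05 became -0.161, -0.113 and -0.169 under these scalings and -0.073 without microRNA rows, with 0.0488 without NC replicate 2, 0.00475 without KDM5_KD replicate 2, -0.033 without KDM5_KD replicate 1 and -0.044 without NC replicate 1. For MRPS rows it became -0.121, -0.072 and -0.127, and with replicates left out -0.020 to 0.038. These scalings moved the median of all rows from 0.09 to -0.007, -0.04 and -0.01, so much of the shift is common to the table.

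Of 643 comparisons of 43 named member rows with an alternative, in 615 neither the direction nor the side of the threshold differed and 28 changed sign. Of 403 comparisons of 27 other named genes, 376 did not differ in this way, 10 changed sign, 11 came past the threshold (RPL17, LUM, BMP15, DPPA3 and KDM5C) and 6 fell short of it. These 6 all concern KDM5A, whose limma adjusted p of 0.0333 became 0.0591 with the replicate block, 0.0605 without a trend, 0.167 without a filter, 0.0625 without NC replicate 2, and 0.179 and 0.232 without KDM5_KD replicates 1 and 2. Under median-ratio scaling and the common sum, MRPL17 was at -0.055 and -0.059, MRPL16 at -0.073 and -0.077, MRPL24 at -0.076 and -0.081, MRPL49 at -0.0082 and -0.012, and MRPL27 at -0.030 and -0.035. PTCD3 was at -0.074 and -0.082. Quantile normalization put MRPL24 at -0.037, MRPL49 at -0.023 and PTCD3 at -0.089. The main row of MRPL55 was at 0.048 when its rows were summed. Leaving out 1 replicate at a time gave a range across 0 for MRPL17 (-0.049 to 0.162), MRPL16 (-0.037 to 0.113), MRPL20 (-0.158 to 0.105), MRPS18C (-0.279 to 0.016), MRPL44 (-0.161 to 0.031), MRPL45 (-0.088 to 0.340), MRPS18B (-0.195 to 0.173), MRPS22 (-0.199 to 0.093), MRPS30 (-0.436 to 0.402), the main row of MRPL55 (-0.409 to 0.057), MRPL27 (-0.0067 to 0.167), MRPL23 (-1.38 to 0.140, the latter without KDM5_KD replicate 2), PTCD3 (-0.107 to 0.168), DAP3 (-0.315 to 0.106), TFAM (-0.161 to 0.087) and KDM6A (-0.365 to 0.148). The direction of these rows is not determined, and the cause was not tested.

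Replicate numbers are shared between the groups, but no label ties them to a common batch. Same-numbered libraries deviated together from their group means at a correlation of 0.229. With the replicate block the median member difference was -0.0172, no member was called, and 8 rows of the whole table were higher and 4 lower. A fit with 1 library in a group assumes that it varies like the others. Depth is unknown, so no detection limit can be given for the lowest rows.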
